A study of Mus musculus with 4 samples.

Results

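Circulating RBP-J-deficient Ly6Chi monocytes were compared with control Ly6Clo monocytes, by RNA-seq of mouse blood, to see which features of Ly6Clo cells the deficient Ly6Chi cells share and which they lack. The comparison took 2 of the 4 samples of the series, 1 library a side. Its genes were the 6356 of 23997 rows of the deposited expression table whose mean FPKM over both libraries was at least 5. FPKM is a count of fragments scaled to the length of the transcript and to the total mapped in the library, so levels can be compared between genes. Control mice were Rbpj+/+ Lyz2 cre/cre (titled WT, with the genotype label Lyz2-Cre) and RBP-J-deficient mice were Rbpj fl/fl Lyz2 cre/cre (labelled RBP-Jfl/fl Lyz2-Cre), so all 4 libraries came from mice that carried Cre at the Lyz2 locus, which is active in granulocytes and macrophages as well as monocytes. No treatment is labelled. Mice were 7 to 12 weeks old and matched for age and gender; the sources used here do not state how many animals were pooled in a library. Subset and genotype both differ within this pair and their parts cannot be told apart in it, so the control Ly6Chi and RBP-J-deficient Ly6Clo libraries are given beside it.

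RBP-J is the DNA-binding protein through which Notch receptors act on transcription. When a ligand engages a Notch receptor, the released intracellular domain joins RBP-J and switches target genes such as Hes1 from a repressed to an active state. Ly6Chi monocytes are the classical, inflammatory cells that leave the bone marrow through the chemokine receptor Ccr2, and Ly6Clo monocytes, which largely derive from them, patrol the vessel wall and depend on the nuclear receptor Nr4a1.

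Rbpj itself was checked first. Its level was 8.30 FPKM in control Ly6Clo, 2.85 in RBP-J-deficient Ly6Chi, 14.4 in control Ly6Chi and 2.43 in RBP-J-deficient Ly6Clo. Both libraries labelled deficient lay below both control libraries, with Rbpj still detected in each of them. A value per gene does not show whether those reads lie outside the deleted part of the gene. Lyz2, which hosts Cre, was at 51.97 FPKM in control Ly6Clo and 102 in RBP-J-deficient Ly6Chi, and Lyz1, which has 95.8% identity with it over 1264 aligned bases of their longest transcripts, was at 985 and 952 FPKM. Reads of such close copies can be shared between them. Ly6c2, whose protein is part of what the sort used, was at 10.9 FPKM in control Ly6Clo against 1594 in RBP-J-deficient Ly6Chi and 2013 in control Ly6Chi, as the subset labels state.

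Over the 6356 genes the median log2 ratio of (FPKM + 1), RBP-J-deficient Ly6Chi over control Ly6Clo, was 0.01, and 88.4% lay within 2-fold. A log2 ratio of 1 or more was found for 394 genes (6.2% of those tested) and one of -1 or less for 344 (5.41%). At the wider folds of 5.7 and 0.2 on (FPKM + 1), taken from the study's methods, 67 genes were higher (1.05%) and 40 were lower (0.629%). With 1 library a side nothing here could be tested, and the values describe these libraries. Of the 107 genes past the wider folds, 11 were small RNA genes, and 10 of these were listed at 0 in one library of the pair. Actb was listed at 27260 FPKM in control Ly6Clo and at 0 in RBP-J-deficient Ly6Chi with the status HIDATA, Cuffdiff's code for a locus with too many fragments to estimate, so no value of it was used beyond these counts. The libraries held 8986 to 9395 genes at 1 FPKM or more, and with no counts in the table the sequencing depth is unknown. All 4 held the Y-linked Ddx3y, at 18.9 to 40.3 FPKM, and Xist at 0.00485 FPKM or less, so each came from male mice by these transcripts. In bulk samples a lower level can stand for fewer cells of a type or less RNA per cell, which cannot be told apart.

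**Figure D1:**
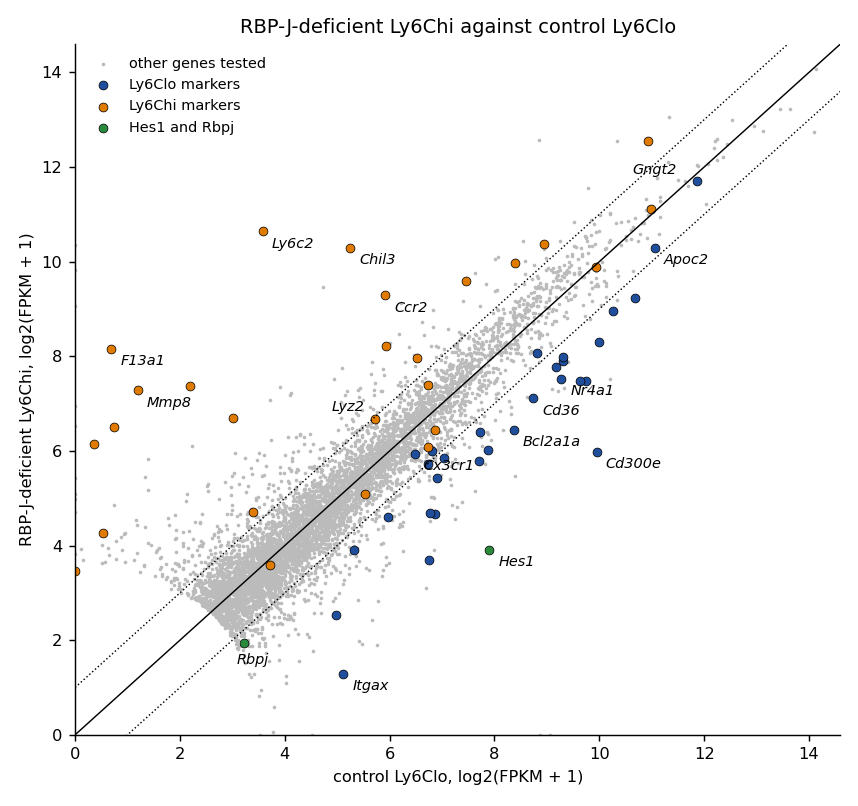
Level of each gene tested in control Ly6Clo (x axis) and RBP-J-deficient Ly6Chi (y axis), both as log2(FPKM + 1), 1 library a side, with the 2 rows lacking an OK status left out. Dotted lines mark 2-fold; 25 of 30 Ly6Clo markers lie below the lower line and 18 of 26 Ly6Chi markers above the upper one, while Gngt2, Apoc2 and Cx3cr1 lie between the lines.

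The Ly6Clo programme was present at a reduced level in RBP-J-deficient Ly6Chi cells. Of 30 Ly6Clo markers, all passed the minimum of 5 FPKM, 25 (83.3%) were at least 2-fold lower than in control Ly6Clo, 5 were within 2-fold and 0 were higher, with a median log2 ratio of -1.46. Among all genes tested 5.41% were lower and 6.2% higher. Every one of the 30 was below control Ly6Clo, and the median marker stood at 36.0% of its control Ly6Clo level. That median was 16.7% in control Ly6Chi and 76.9% in RBP-J-deficient Ly6Clo. RBP-J-deficient Ly6Chi lay above control Ly6Chi for 23 of the 30 markers and below it for 7. For those 23 it therefore lay between the control libraries. Over all genes tested 34.9% took such a place. Subset markers are chosen to differ between the control libraries, which leaves more room between them. The share over all genes is therefore no like measure for the markers. The list was drawn up with earlier results of these data known.

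The 4 markers given for this pair differed widely among themselves. Cd36, a scavenger receptor for oxidised lipids and long-chain fatty acids, was at 426 FPKM in control Ly6Clo, 137 in RBP-J-deficient Ly6Chi, 26.9 in control Ly6Chi and 945 in RBP-J-deficient Ly6Clo. The deficient Ly6Chi library held 32.3% of the control Ly6Clo level (log2 ratio -1.63), well above the control Ly6Chi library. Bcl2a1a, an anti-apoptotic relative of Bcl2, followed the same order at 329, 86.2, 27.6 and 442 FPKM, which put the deficient Ly6Chi cells at 26.2% of control Ly6Clo (log2 ratio -1.92). Cd300e, an activating receptor of the CD300 family, was far more restricted. It stood at 987 FPKM in control Ly6Clo and 61.9 in RBP-J-deficient Ly6Chi, with 12.5 in control Ly6Chi and 564 in RBP-J-deficient Ly6Clo. Deficient Ly6Chi cells thus carried 6.27% of the control Ly6Clo level (log2 ratio -3.97), the lowest log2 ratio of the 30 markers. Apoc2, the apolipoprotein that activates lipoprotein lipase, was by contrast within 2-fold, at 2132 FPKM in control Ly6Clo and 1257 in RBP-J-deficient Ly6Chi (log2 ratio -0.76). Its control Ly6Chi level was 479 FPKM and its RBP-J-deficient Ly6Clo level 3288. The genes lie on GRCm38 at chromosome 5, 17781690 to 17888801 (Cd36), chromosome 9, 88956900 to 88962419 (Bcl2a1a), chromosome 11, 115051917 to 115062177 (Cd300e) and chromosome 7, 19671579 to 19677941 (Apoc2) in GENCODE M21.

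**Figure D2:**
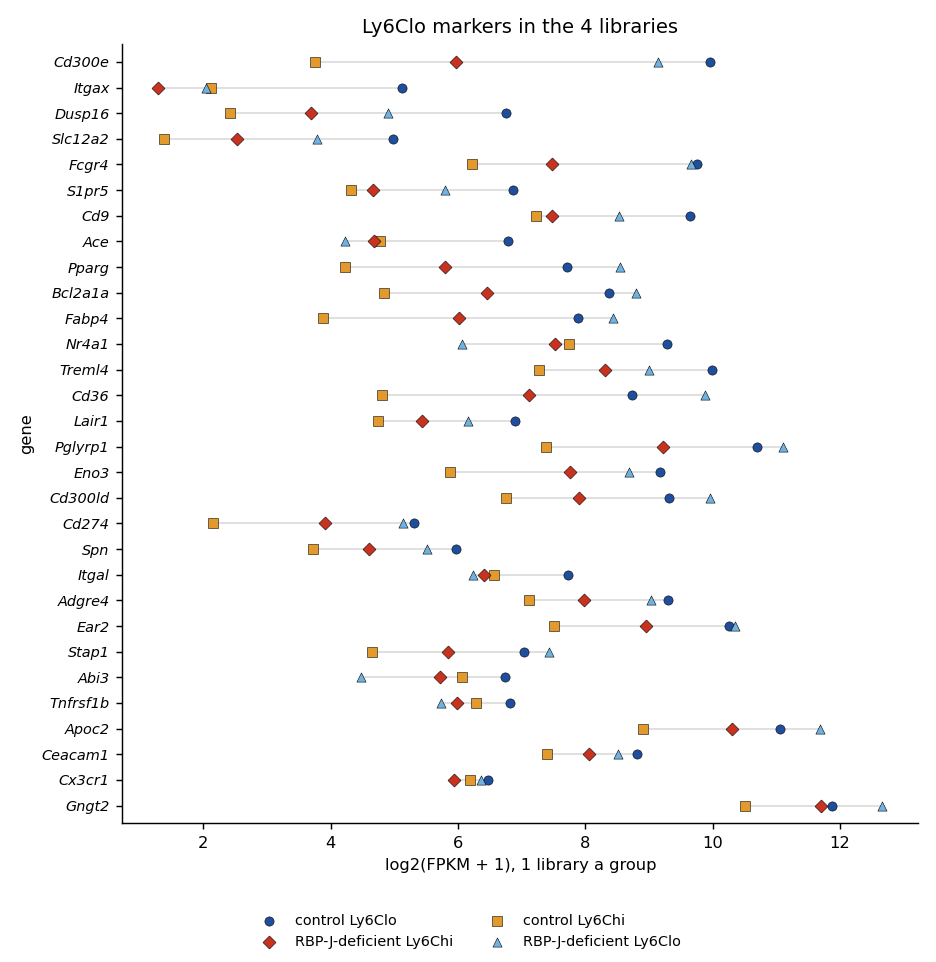
Level of the 30 Ly6Clo markers in each of the 4 libraries as log2(FPKM + 1), 1 point a library, ordered from the lowest log2 ratio (Cd300e) to the highest (Gngt2). Red diamonds, RBP-J-deficient Ly6Chi, lie left of the dark blue circles, control Ly6Clo, for all 30 markers and right of the orange squares, control Ly6Chi, for 23.

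The other 4 markers within 2-fold were of different kinds. Gngt2, a G protein gamma subunit, was the closest match, at 3729 FPKM in control Ly6Clo and 3317 in RBP-J-deficient Ly6Chi against 1452 in control Ly6Chi. Ceacam1, an adhesion receptor, was likewise at 449 and 266 FPKM against 168. On the log2 scale the deficient Ly6Chi library lay nearer to control Ly6Clo than to control Ly6Chi for Gngt2, and about midway for Ceacam1. Cx3cr1, the fractalkine receptor, differed little among all 4 libraries, from 60.3 FPKM in RBP-J-deficient Ly6Chi to 88.1 in control Ly6Clo. Tnfrsf1b, a TNF receptor, was at 112 FPKM in control Ly6Clo, 62.5 in RBP-J-deficient Ly6Chi and 76.9 in control Ly6Chi, so the last of these was not the lowest.

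A further set of Ly6Clo markers was no higher in RBP-J-deficient Ly6Chi than in control Ly6Chi. Itgax, which encodes the integrin CD11c, was at 33.7 FPKM in control Ly6Clo and at 1.45 in RBP-J-deficient Ly6Chi, 3.36 in control Ly6Chi and 3.10 in RBP-J-deficient Ly6Clo. Only control Ly6Clo held it above 5 FPKM, and its log2 ratio was -3.82. Nr4a1 was likewise highest in control Ly6Clo, at 618 FPKM. Its level was 182 FPKM in RBP-J-deficient Ly6Chi, 214 in control Ly6Chi and 65.6 in RBP-J-deficient Ly6Clo. By flow cytometry and qPCR, the paper found Nr4a1 alike in Ly6Clo monocytes of both genotypes, unlike these single libraries. Ace, angiotensin-converting enzyme, was at 109 FPKM in control Ly6Clo and between 17.7 and 26.4 in the other 3 libraries. Itgal, the integrin subunit of LFA-1, was at 209.9 FPKM against 74.2 to 93.6. For Itgax, Nr4a1, Ace and Itgal, as for Abi3, Tnfrsf1b and Cx3cr1, RBP-J-deficient Ly6Chi lay below control Ly6Chi, which makes up the 7 markers counted so.

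The remaining markers were intermediate. Fcgr4, an activating Fc receptor, was at 857 FPKM in control Ly6Clo, 176 in RBP-J-deficient Ly6Chi and 73.6 in control Ly6Chi. Treml4 was at 1018, 316 and 154 FPKM in the same order. Pglyrp1, a secreted peptidoglycan-binding protein, was at 1648, 598 and 166 FPKM. In each of these 3 the deficient Ly6Chi level was more than 2-fold above control Ly6Chi and more than 2-fold below control Ly6Clo. The gap above control Ly6Chi was small for S1pr5, a receptor for sphingosine-1-phosphate, at 24.4 against 18.9 FPKM, and for the tetraspanin Cd9, at 178 against 149 FPKM. Dusp16, a phosphatase of the JNK and p38 kinases, was at 107 FPKM in control Ly6Clo and only 11.9 in RBP-J-deficient Ly6Chi (log2 ratio -3.06), and Slc12a2, an ion cotransporter, at 30.4 and 4.75 FPKM (log2 ratio -2.45).

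The classical programme was prominent in RBP-J-deficient Ly6Chi cells. Of 29 Ly6Chi markers, 26 passed the minimum, of which 18 (69.2%) were at least 2-fold higher than in control Ly6Clo, 8 were within 2-fold and 0 were at least 2-fold lower, with a median log2 ratio of 1.88. Among all genes tested 6.2% were higher and 5.41% lower. Without regard to the size of the difference, 21 of the 26 lay above control Ly6Clo and 5 below. Among the 67 genes past the fold of 5.7, 11 were on this list. Because a gene low in control Ly6Clo passed the minimum only through the deficient Ly6Chi library, the higher share is in part set by that minimum. Fcnb lay just inside it, at 0 and 10.1 FPKM, and Vcan just outside, at 0.0398 and 8.93 FPKM. Asking at least 1 FPKM in both libraries left 13 of 21 at least 2-fold higher. F13a1, a transglutaminase subunit of coagulation, had the highest log2 ratio of all genes above 0 in both libraries, 7.46. It was at 0.611 FPKM in control Ly6Clo, 283 in RBP-J-deficient Ly6Chi, 479.8 in control Ly6Chi and 10.7 in RBP-J-deficient Ly6Clo.

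Both Ly6Chi libraries stood apart from both Ly6Clo libraries for most of the leading genes. Mmp8, a collagenase, was at 1.30 FPKM in control Ly6Clo and 155 in RBP-J-deficient Ly6Chi and Fn1 (fibronectin) at 0.284 and 69.7. Chil3, a chitinase-like protein, was at 36.96 and 1257 FPKM, with 1153 in control Ly6Chi. Ly6c1, which has 97.6% identity with Ly6c2 over 822 aligned bases and can share reads with it, was at 0.677 and 89.6 FPKM. Ccr2 did not follow the split of the subsets, at 59.2 FPKM in control Ly6Clo, 624 in RBP-J-deficient Ly6Chi, 712 in control Ly6Chi and 474 in RBP-J-deficient Ly6Clo. Control Ly6Clo was the single low library for Ccr2, and the log2 ratio of the pair was 3.38. Capg, an actin-capping protein, was of the same kind, at 25.6 FPKM in control Ly6Clo against 701, 684 and 409.9 in the other libraries in that order.

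**Figure D3:**
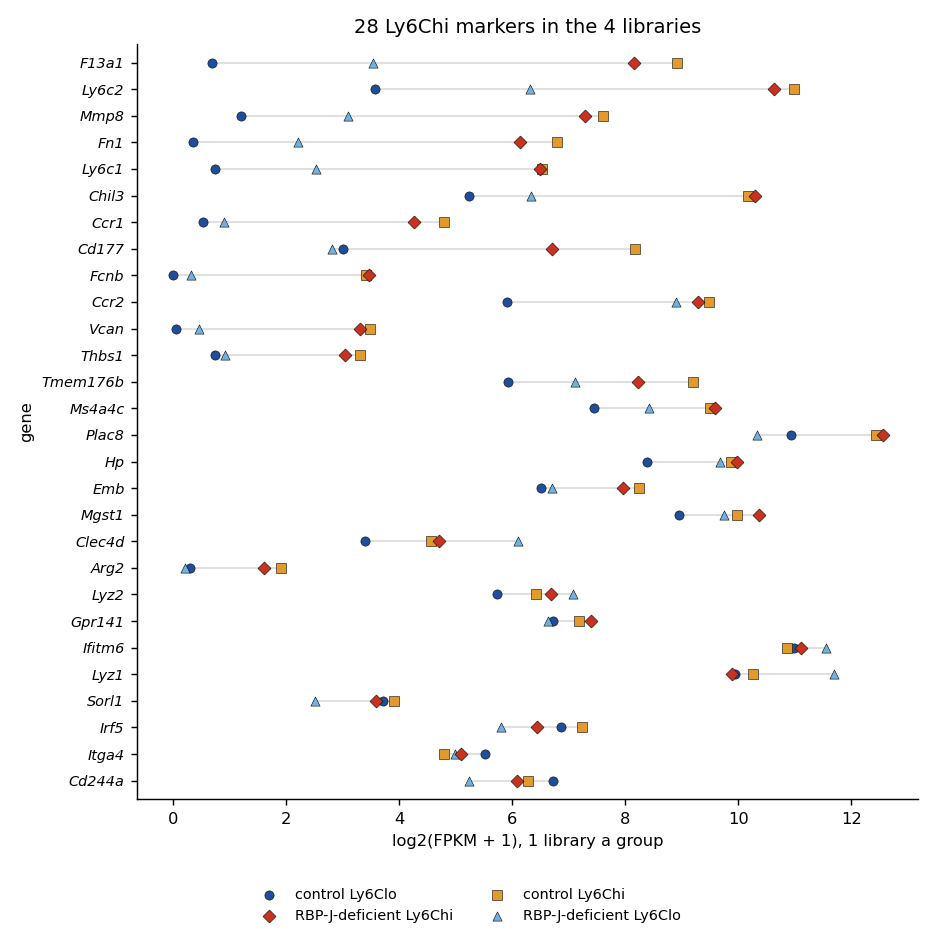
Level of 28 of the 29 Ly6Chi markers in each of the 4 libraries as log2(FPKM + 1), 1 point a library, ordered from the highest log2 ratio of the pair (F13a1) to the lowest (Cd244a). Arg2, Thbs1 and Vcan were below the minimum mean of 5 FPKM and entered no count.

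The 8 Ly6Chi markers within 2-fold were mostly abundant in control Ly6Clo as well. Ifitm6, an interferon-induced membrane protein, was at 2036 FPKM in control Ly6Clo and 2209.9 in RBP-J-deficient Ly6Chi, and Irf5, an interferon regulatory factor, at 115 and 85.8. Among those higher, the mildest log2 ratios were those of Clec4d (1.32), Mgst1 (1.42) and Emb (1.45). Plac8 was the most abundant member, at 1959 FPKM in control Ly6Clo and 6024 in RBP-J-deficient Ly6Chi (log2 ratio 1.62).

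Of the Notch target genes listed, Hes1, Nrarp and Bcl2 were lower in RBP-J-deficient Ly6Chi than in control Ly6Clo. They were also lower in control Ly6Chi than in control Ly6Clo. Hes1, a transcriptional repressor, had the lowest log2 ratio of all genes above 0 in both libraries, -3.99. Its level was 238 FPKM in control Ly6Clo, 14.1 in RBP-J-deficient Ly6Chi, 40.5 in control Ly6Chi and 11.7 in RBP-J-deficient Ly6Clo. Both deficient libraries were below control Ly6Chi, which was itself far below control Ly6Clo. Nrarp, a feedback inhibitor of Notch, was at 10.3 FPKM in control Ly6Clo and at 0.767 FPKM or less elsewhere. Bcl2, which is on the Notch target list and the Bcl2 family list, was at 31.7 FPKM in control Ly6Clo, 6.94 in RBP-J-deficient Ly6Chi and 4.18 in control Ly6Chi. In all, 5 of 19 Notch targets passed the minimum. Of these, 3 were at least 2-fold lower (Hes1, Nrarp and Bcl2), against 5.41% of all genes tested. The other 2, Trib1 at a log2 ratio of -0.99 and Nfkb2 at 0.18, were within 2-fold. Nrarp passed only through control Ly6Clo, where it is high; with at least 1 FPKM asked in both libraries 2 of 4 targets were lower, and with a minimum mean of 1 FPKM 3 of 7.

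Of 30 genes of the Notch pathway itself, 13 passed the minimum and 11 of them (84.6%) were within 2-fold, near the 88.4% of all genes tested, with a median log2 ratio of -0.09. Rbpj and the coactivator Maml2, at 14.2 and 5.06 FPKM, were the 2 lower ones, and neither was with a pseudocount of 5 FPKM. Notch2, the main receptor transcript here, was at 126 FPKM in control Ly6Clo, 161 in RBP-J-deficient Ly6Chi, 70.3 in control Ly6Chi and 732 in RBP-J-deficient Ly6Clo. The pair was close, and RBP-J-deficient Ly6Clo stood far above the other 3 libraries. Psen2, a catalytic subunit of gamma-secretase, had the highest log2 ratio of the list, 0.49.

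**Figure D4:**
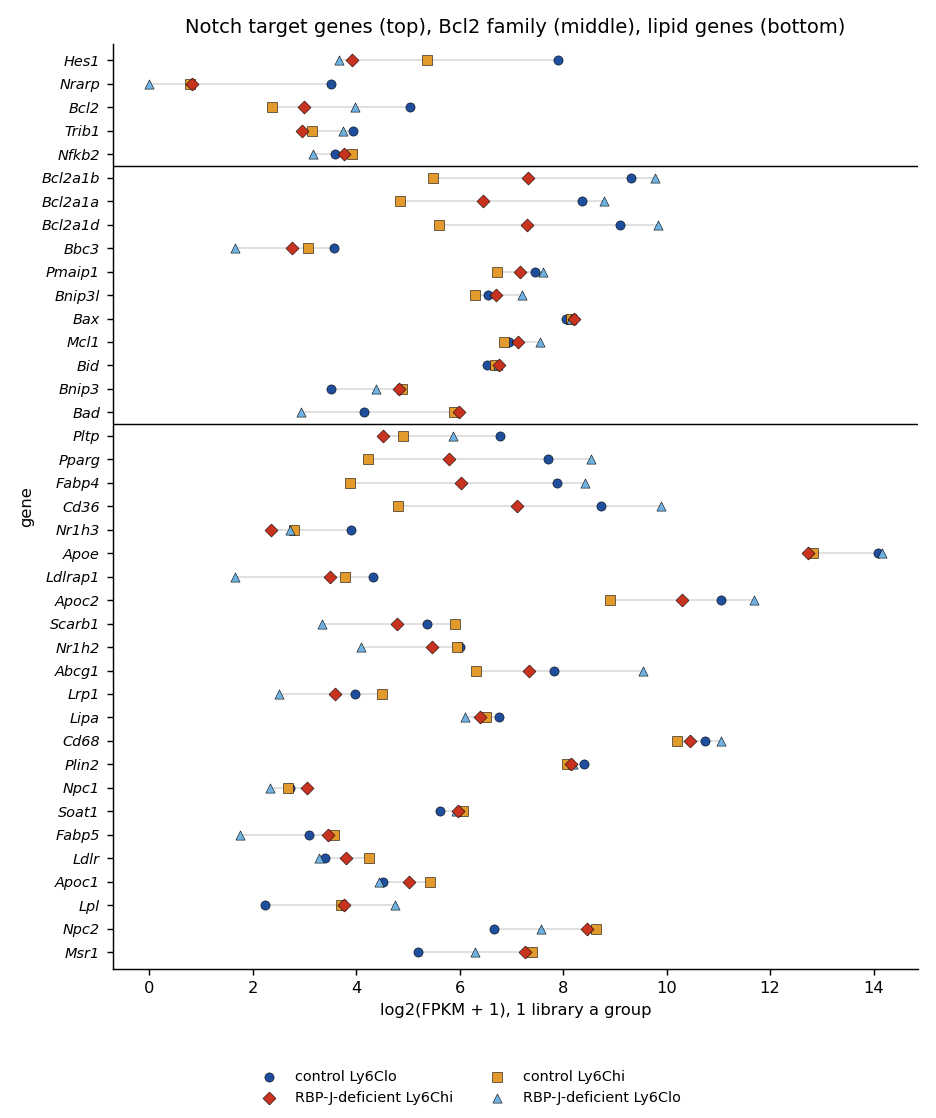
Level of Notch target genes, Bcl2 family genes and lipid uptake and efflux genes that passed the minimum, as log2(FPKM + 1) in each of the 4 libraries, 1 point a library. For the 3 Bcl2a1 copies and for Pparg, Fabp4, Cd36 and Apoc2, the order from left to right is control Ly6Chi, RBP-J-deficient Ly6Chi, control Ly6Clo and RBP-J-deficient Ly6Clo; for Hes1, both deficient libraries lie left of both controls.

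Bcl2a1a has near-identical neighbours. Bcl2a1b was at 638 FPKM in control Ly6Clo, 159 in RBP-J-deficient Ly6Chi, 43.9 in control Ly6Chi and 878 in RBP-J-deficient Ly6Clo. Bcl2a1d was at 549, 157, 47.8 and 916 FPKM in that order. The 3 copies kept the same order of libraries, and their log2 ratios were -1.92, -1.999 and -1.796. Their longest transcripts were 98.2% to 99.1% identical, so reads can be shared among them and their levels are not independent. The 250 bases before their RefSeq start sites were 95.2% to 99.5% identical over 206 to 250 aligned bases. They are shown because the 3 genes kept one order of libraries, and each holds TTCCCA, the reverse complement of the RBP-J core letters TGGGAA, in capitals. Of the other 3 markers given for the pair, the promoter of Cd36 holds TGGGAA, also in capitals, and follows them. The windows lie on GRCm38.p6 at chr9:88956670-88956919 on the plus strand (Bcl2a1a), chr9:89199023-89199272 on the plus strand (Bcl2a1b), chr9:88731851-88732100 on the minus strand (Bcl2a1d) and chr5:17835897-17836146 on the minus strand (Cd36, at a start site inside the annotated span of the gene), each printed 5′ to 3′.
Bcl2a1a: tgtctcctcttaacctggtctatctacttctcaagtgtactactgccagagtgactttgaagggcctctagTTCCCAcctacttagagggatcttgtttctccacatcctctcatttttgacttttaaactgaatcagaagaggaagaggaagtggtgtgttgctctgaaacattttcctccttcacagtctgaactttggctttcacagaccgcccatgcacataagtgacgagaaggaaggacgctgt
Bcl2a1b: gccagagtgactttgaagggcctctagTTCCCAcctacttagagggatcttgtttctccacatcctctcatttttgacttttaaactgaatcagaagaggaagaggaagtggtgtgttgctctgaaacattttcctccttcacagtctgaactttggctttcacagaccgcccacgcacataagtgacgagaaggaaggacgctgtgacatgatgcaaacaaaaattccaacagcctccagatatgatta
Bcl2a1d: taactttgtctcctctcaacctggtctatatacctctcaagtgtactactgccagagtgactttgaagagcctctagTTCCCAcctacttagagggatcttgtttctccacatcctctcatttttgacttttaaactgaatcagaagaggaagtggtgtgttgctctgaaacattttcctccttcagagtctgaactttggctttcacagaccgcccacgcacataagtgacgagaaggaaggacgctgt
Cd36: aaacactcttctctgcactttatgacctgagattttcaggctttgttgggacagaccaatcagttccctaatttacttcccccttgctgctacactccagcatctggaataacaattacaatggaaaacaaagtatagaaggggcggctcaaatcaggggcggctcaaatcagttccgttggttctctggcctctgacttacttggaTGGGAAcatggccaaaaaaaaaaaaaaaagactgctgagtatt

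TGGGAA was searched on both strands of these 250 bases, with no overlap with another motif examined. It was found in 21.6% of 32851 RefSeq promoter windows, in 23.3% of the 4861 genes tested that had a window, in 27.0% of 256 genes at least 2-fold lower and in 22.0% of 277 at least 2-fold higher. Among higher genes, both windows of Ly6c2 held TTCCCA once and those of Ly6c1 and Ccr2 held neither form. The windows of Nrarp, Itgax, Cd300e, Apoc2 and Nr4a1 did not hold these letters. A match is a description of the sequence and not a site of binding.

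The rest of the Bcl2 family divided. Of 21 members, 12 passed the minimum, with 4 at least 2-fold lower (Bcl2 and the Bcl2a1 copies), 2 higher and 6 within 2-fold. The shares over all genes tested were 5.41%, 6.2% and 88.4% in that order. Bad, a pro-apoptotic member, was at 16.7 FPKM in control Ly6Clo and 62.3 in RBP-J-deficient Ly6Chi (log2 ratio 1.83), and Bnip3, a mitochondrial member, at 10.4 and 27.3 (log2 ratio 1.31). Mcl1, Bax and Bid had log2 ratios of 0.17, 0.16 and 0.24.

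Lipid handling genes were split along a similar line. Of 26 listed, 23 passed the minimum. Of these, 6 (26.1%) were at least 2-fold lower, 3 higher and 14 within 2-fold. All genes tested had 5.41%, 6.2% and 88.4% in these classes. Of the lower ones, Cd36, Pparg and Fabp4 are also Ly6Clo markers, so this count is not independent of that list. Pparg, a nuclear receptor for fatty acid ligands, was at 208 FPKM in control Ly6Clo, 54.3 in RBP-J-deficient Ly6Chi, 17.6 in control Ly6Chi and 373 in RBP-J-deficient Ly6Clo. Fabp4, a fatty acid chaperone, was at 235, 63.7, 13.8 and 343 FPKM. Together with Cd36, these genes had a deficient Ly6Chi level of 26.1% to 32.3% of control Ly6Clo. Apoe, the main apolipoprotein of macrophages, and Pltp, a phospholipid transfer protein, showed no such intermediate level. Apoe was at 17490.0 FPKM in control Ly6Clo against 6801 in RBP-J-deficient Ly6Chi and 7275 in control Ly6Chi, and Pltp at 108 against 21.8 and 28.9. Msr1 (a scavenger receptor), Npc2 (a lysosomal cholesterol carrier) and Lpl (lipoprotein lipase) were higher, with log2 ratios of 2.07, 1.79 and 1.54. Abcg1, a cholesterol exporter, was at 227 FPKM in control Ly6Clo, 161 in RBP-J-deficient Ly6Chi and 78.97 in control Ly6Chi.

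Monocyte transcription factors tended to be lower in the deficient Ly6Chi cells. Of 33, 24 passed the minimum, with a median log2 ratio of -0.53. Of these, 8 (33.3%) were at least 2-fold lower and 1 was higher, against 5.41% and 6.2% of all genes tested. Cebpb, on which Ly6Clo monocytes depend, was at 36.3 FPKM in control Ly6Clo, 10.6 in RBP-J-deficient Ly6Chi, 22.8 in control Ly6Chi and 43.5 in RBP-J-deficient Ly6Clo, so RBP-J-deficient Ly6Chi was the lowest library. Tcf7l2, a factor of Wnt signalling, was instead intermediate, at 157 FPKM in control Ly6Clo, 52.8 in RBP-J-deficient Ly6Chi and 22.1 in control Ly6Chi. Spi1, which encodes PU.1, was at 903 and 442 FPKM in the pair but at 851 in control Ly6Chi and 211 in RBP-J-deficient Ly6Clo, that is, low in both deficient libraries. Cebpa was the higher one, at 5.61 and 18.4 FPKM. Among immediate early genes, 3 of 18 that passed the minimum (Nr4a1 and the phosphatases Dusp1 and Dusp2) were at least 2-fold lower and 0 higher. That is 16.7% lower, against 5.41% of all genes tested. Junb was within 2-fold in the pair, at 146 and 123 FPKM, and at 468 in control Ly6Chi and 18.6 in RBP-J-deficient Ly6Clo.

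Surface receptors of innate recognition lay in both directions. Of 37 CD300, Treml and paired receptors listed, 3 stood for a row already counted and 27 passed the minimum. Of these, 7 were at least 2-fold lower, 6 higher and 14 within 2-fold, against 5.41%, 6.2% and 88.4% of all genes tested. Besides Cd300e and Treml4, the lower ones included Trem1, an amplifier of inflammation, at 24.7 FPKM in control Ly6Clo and 6.37 in RBP-J-deficient Ly6Chi, and Cd300ld at 633 and 239. Clec4a2 and Trem2 were higher, at 37.4 against 4.75 FPKM and at 45.4 against 7.16 FPKM. Tyrobp, the shared signalling adaptor, was nearly equal in the pair, at 4293 and 4281 FPKM. The Fc gamma receptor genes spanned both directions, from Fcgr4 (log2 ratio -2.28) and Fcgrt (-1.36), through the shared gamma chain Fcer1g (-0.36) and the inhibitory Fcgr2b (0.68), to the high-affinity Fcgr1 (1.31).

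Receptors and adhesion molecules of trafficking included wide contrasts. Of 10 chemoattractant receptors that passed the minimum, Ccr2 and Ccr1 were at least 2-fold higher and S1pr5 and S1pr4 lower. Of all genes tested, 6.2% were higher and 5.41% lower. Ccr1, at 0.445 and 18.3 FPKM in the pair, passed only through RBP-J-deficient Ly6Chi, where it is high. With at least 1 FPKM asked in both libraries 1 of 9 was higher and 2 lower. Fpr1, a formyl peptide receptor, matched control Ly6Clo, at 59.5 FPKM in control Ly6Clo and 67.7 in RBP-J-deficient Ly6Chi. The control Ly6Chi library held 6.82 FPKM of it and RBP-J-deficient Ly6Clo 370.2, so the control Ly6Chi library was the single low one. Of 19 adhesion genes that passed, 6 (31.6%) were at least 2-fold lower, against 5.41% of all genes tested. Pecam1, the endothelial and leukocyte adhesion molecule CD31, was at 54.1 FPKM in control Ly6Clo, 6.10 in RBP-J-deficient Ly6Chi, 4.26 in control Ly6Chi and 55.1 in RBP-J-deficient Ly6Clo, a split by subset. Itgam, which encodes CD11b, was at 57.7 and 63.7 FPKM in the pair.

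Inflammatory and interferon genes were among the most uniformly higher lists. All but 2 of the 15 S100 proteins and annexins that passed, 13 (86.7%), were at least 2-fold higher, with a median log2 ratio of 1.89. Among all genes tested 6.2% were higher. Summed over the 18 found, the level was 2548 FPKM in control Ly6Clo and 8217 in RBP-J-deficient Ly6Chi. It was 8601 FPKM in control Ly6Chi and 4718 in RBP-J-deficient Ly6Clo. S100a10 was at 73.2 FPKM in control Ly6Clo and 555 in RBP-J-deficient Ly6Chi, S100a4 at 256 and 1069, and Anxa1, an anti-inflammatory annexin, at 370.5 and 1380.4. Of 25 interferon-stimulated genes that passed, 16 (64%) were at least 2-fold higher and 0 lower, with a median of 1.24. Isg15, a ubiquitin-like protein, was at 9.26 and 48.98 FPKM, and Ifit1, an RNA-binding effector, at 7.01 and 43.5, while control Ly6Chi held 59.9 and 40.5 of them. Of 12 chemokines and cytokines that passed, 7 were at least 2-fold higher, the platelet chemokines Pf4 and Ppbp among them, and 0 lower. Some of these, such as Ccl2, passed the minimum only through RBP-J-deficient Ly6Chi, where they are high. With at least 1 FPKM asked in both libraries 5 of 10 were higher, and with a minimum mean of 1 FPKM 8 of 16 were higher and 1 was lower. Ccl2, the ligand of Ccr2, was at 0.421 and 15.01 FPKM, and Il1b at 166 and 93.5 (log2 ratio -0.82).

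Complement and MHC class II genes were within 2-fold less often than the 88.4% of all genes tested, at 66.7% and 75%, with the others higher. Cfb and C3, components of the alternative pathway, were 2 of 6 complement genes at least 2-fold higher, with log2 ratios of 2.94 and 2.08. In the MHC class II list 2 of 8 were higher (H2-DMa, 1.498, and H2-DMb1, 1.09) and H2-Ab1 was at 979.8 and 1572 FPKM. All 76 cytosolic ribosomal protein genes were within 2-fold, but 72 of them were above control Ly6Clo, with a median log2 ratio of 0.48. Of 28 lysosomal genes, 23 were within 2-fold, Acp5 (tartrate-resistant acid phosphatase) was lower, at a log2 ratio of -2.33, and Ctsc, a cysteine protease, was higher, at 1.43. Among 7 cell cycle genes, the replication licensing factors Mcm7, Mcm6 and Mcm3 were at least 2-fold lower (42.9%), against 5.41% of all genes tested. None of these factors was above 21.5 FPKM in control Ly6Clo. With a pseudocount of 5 FPKM none of the 7 was at least 2-fold lower, and with a minimum mean of 1 FPKM 5 of 18 were lower and 3 higher.

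**Figure D5:**
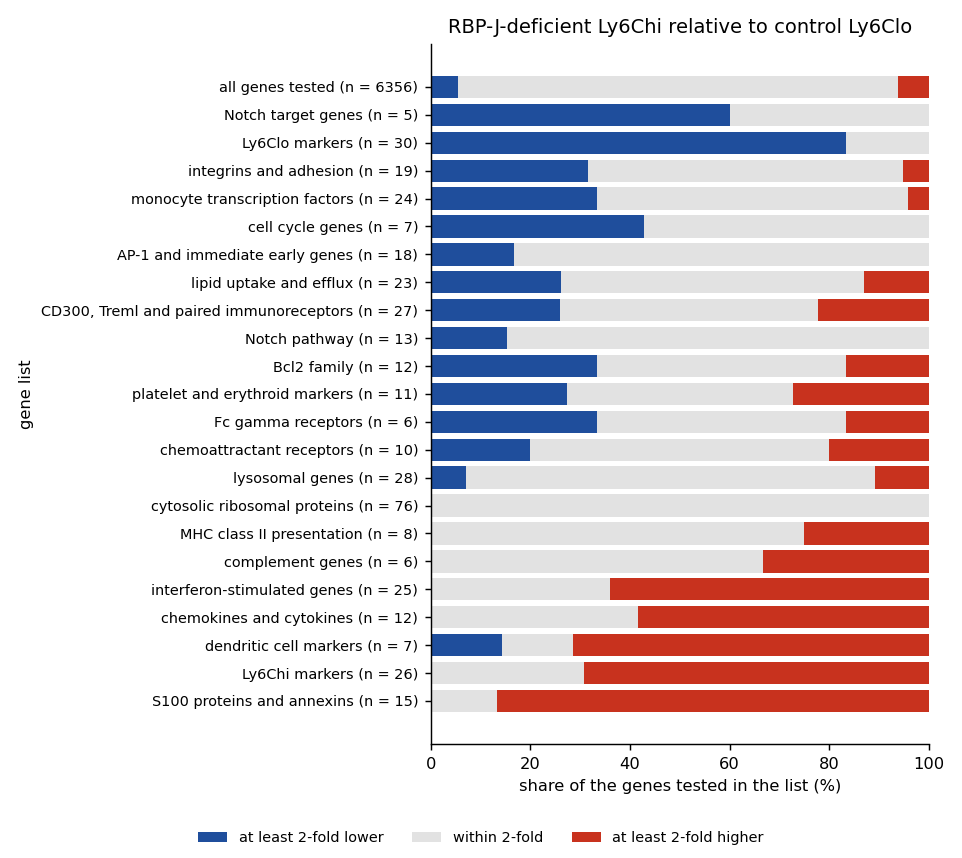
Share of the genes tested in each list that were at least 2-fold lower, within 2-fold or at least 2-fold higher in RBP-J-deficient Ly6Chi than in control Ly6Clo, for lists with at least 5 genes tested, ordered by median log2 ratio. The top bar gives the same shares over all 6356 genes, 5.41% lower and 6.2% higher; the Ly6Clo markers (83.3% lower) and the S100 proteins and annexins (86.7% higher) have the largest share in either direction.

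Other genes at the ends of the range had varied patterns over the 4 libraries. Among the 15 lowest log2 ratios, Tgm2, a tissue transglutaminase, was at 53.1 FPKM in control Ly6Clo and 2.74 in RBP-J-deficient Ly6Chi, and Ets1, a transcription factor, at 43.7 and 2.76. Dusp5 (an ERK phosphatase), Alox5 (5-lipoxygenase) and Rbpms (an RNA-binding protein) had log2 ratios of -3.43, -3.23 and -2.94. Cd83, a marker of activation, was high in both Ly6Clo libraries, at 337 FPKM in control and 348 in deficient cells, against 43.4 in RBP-J-deficient Ly6Chi. The gene listed as 1110008F13Rik was at 103 FPKM in control Ly6Clo and 116 in control Ly6Chi. At 7.61 FPKM in RBP-J-deficient Ly6Chi and 13.6 in RBP-J-deficient Ly6Clo, it split by genotype instead. Among the 15 highest, Erdr1 did so in the other direction, at 1.61 and 3.38 FPKM in control Ly6Clo and Ly6Chi against 34.9988 and 121 in deficient Ly6Chi and Ly6Clo. Smim5, Ms4a8a, Crybb1, AI839979 and Padi4 were also among those 15, with log2 ratios between 3.81 and 4.45. The joint row of Gm17757 and Gm18853, listed at 12.8 FPKM in control Ly6Clo and 0.0455 in RBP-J-deficient Ly6Chi, was low in that library alone, with 10.4 to 14.9 FPKM in the other 3.

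Markers of other blood cells were checked in every library. Of 11 B cell markers found, 3 passed the minimum. Cd22 and Cd79a were at 12.9 and 9.02 FPKM in control Ly6Clo and at 1.42 FPKM or less in the other 3 libraries, Ms4a1 was at 3.27 FPKM in control Ly6Clo, and Cd79b was at 41.9 and 43.7 FPKM in the pair. Summed over the list, the level was 73.3 FPKM in control Ly6Clo, 49.4 in RBP-J-deficient Ly6Chi, 27.6 in control Ly6Chi and 104 in RBP-J-deficient Ly6Clo, most of it Cd79b. The B lineage factor Pax5 was listed at 0 in control Ly6Clo. Cd22 and Ikzf3, a lymphoid factor at 15.4 and 1.12 FPKM, are among the 15 lowest ratios, and the part of B cell RNA in them was not tested. None of 18 T and NK cell markers found passed the minimum, with a summed level of 6.35 and 11.2 FPKM in the pair.

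Neutrophil markers ran the other way. Of 14 found, 4 passed, and 3 of these were at least 2-fold higher, against 6.2% of all genes tested. They were Retnlg, S100a8 and S100a9, with log2 ratios of 2.25, 2.12 and 2.04. The sum over the list was 271 FPKM in control Ly6Clo and 1087 in RBP-J-deficient Ly6Chi, against 1396 in control Ly6Chi. S100a8 and S100a9, which Ly6Chi monocytes also express, made up most of it, at 861 and 144 FPKM in RBP-J-deficient Ly6Chi, whereas the granule genes Mpo and Ltf were listed at 0 there and Ngp and Camp were at 4.87 and 5.52 FPKM. Ngp and Camp were listed at 0 in both control libraries. Of 15 platelet and erythroid genes found, 11 passed, 3 lower and 3 higher. The haemoglobin rows went both ways. Hba-a2 was at 1171 FPKM in control Ly6Clo and 183 in RBP-J-deficient Ly6Chi. Hbb-bt and the joint row of Hbb-b1 and Hbb-bs had log2 ratios of -1.48 and -1.54, but the row of Hbb-bs alone had 2.31. The platelet genes Pf4 and Ppbp had log2 ratios of 1.08 and 1.44. Of 7 dendritic cell markers that passed, 5 were higher, led by Kmo and Batf3, and 1, Ly6d, lower. Over all genes tested 6.2% were higher and 5.41% lower. The count higher was 5 of 7 with at least 1 FPKM in both libraries and 4 of 6 with a minimum mean of 10 FPKM. Cd209a was at 41.8 and 139 FPKM in the pair and 183 in control Ly6Chi. The part of other cells in the S100, chemokine and haemoglobin differences was not tested.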

How the data were processed

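Total RNA of sorted blood monocytes was made into libraries that were sequenced with paired ends. Per the labels' processing notes, the authors used CASAVA 1.8, TopHat2 2.1.0 and Cufflinks 2.2.1 with the mm10 build, and the columns and status codes of the table are those of Cuffdiff. The authors deposited FPKM values per gene for each pair of libraries, with log2 fold changes, test statistics, p-values and q-values of their own comparisons, which were not used. Values of near-identical genes are uncertain, since how shared reads were apportioned is not given in the sources used here, and the low values fell on no steps from which reads could be recovered.

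From the FPKM of control Ly6Clo and RBP-J-deficient Ly6Chi, log2 ratios of (FPKM + 1) were computed for rows with a mean FPKM of at least 5. The pseudocount makes ratios of low genes smaller. Each group holds 1 library, so no test was run and no p-value is given. The folds of 5.7 and 0.2 follow the study's methods, and classes at 2-fold describe the gene lists. The members and the 25 lists were chosen with earlier results of these data known. Lists share members, so their counts are not independent. Among the Ly6Clo markers, Cd300e, Treml4 and Cd300ld are also in the CD300 list and Cd36, Pparg and Fabp4 in the lipid list. Nr4a1, Fcgr4, Itgax and Bcl2a1a are also in the immediate early, Fc gamma receptor, adhesion and Bcl2 family lists.

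Named genes were the 4 markers given for the pair, Rbpj and Lyz2, members of the Ly6Clo and Ly6Chi lists, up to 4 members at each end of the other lists, the 15 highest and 15 lowest ratios among genes above 0 in both libraries that are not small RNA genes, and close copies of these. Abcg1, Anxa1, Apoe, Bax, Fpr1, Itgam, Junb, Spi1 and Tyrobp, the other cell markers below the minimum, Actb, Ddx3y and Xist were chosen after their values were seen. Members were matched by symbol, by an older symbol or by a joint row; Ly6g, Ighm, Ighd, Igkc, Trac, Trbc1, Trbc2 and Hbb-b2 were not analysed here. Some members that entered the counts are not reported here by name. In 27 rows the symbol had become a date, and none of these is named.

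Positions are from GENCODE M21 on GRCm38 and promoter windows from RefSeq (GRCm38.p6), of which the 250 bases before the start were read. Transcripts and windows were aligned locally with Biopython 1.88. Alternatives covered the pseudocount (0.1 and 5), the minimum mean (1 and 10), an FPKM of at least 1 in both libraries, TPM, median centring, a lowess GC trend (fraction 0.3, 3 iterations, statsmodels 0.14.6), rows with status OK, and small RNA genes left out. Calculations used Python 3.11.15, numpy 2.4.6 and pandas 2.3.3 and were tested on simulated data.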

Additional observations from a re-analysis of the deposited data

How the results depend on the processing

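The medians of the Ly6Clo and Ly6Chi markers kept their sign under all 10 alternatives, from -1.42 to -1.56 and from 1.45 to 2.14. With a pseudocount of 5 FPKM the genes past the folds of 5.7 and 0.2 were 31 and 20, against 67 and 40, and 212 genes were at least 2-fold lower, against 344. With a minimum mean of 1 FPKM, 654 genes were at least 2-fold higher and 557 lower, and with at least 1 FPKM in both libraries 36 were past the fold of 5.7. Rescaling to TPM gave 351 genes at least 2-fold higher and 427 lower, against 394 and 344, so the larger of the classes changed; the TPM totals include Actb, which is listed at 0 in RBP-J-deficient Ly6Chi. The other counts over all genes stayed within 1.5 times. Counts in short lists moved more. With a pseudocount of 5 FPKM the cell cycle genes at least 2-fold lower went from 3 to 0 and those of the Notch pathway from 2 to 0, and with a minimum mean of 10 FPKM from 3 to 1 and from 2 to 0. That minimum left 4 of 7 chemokines and cytokines higher and 1 of 8 chemoattractant receptors in each direction, and no B cell marker lower. Higher genes went from 2 to 1 for MHC class II with TPM and from 3 to 5 for platelet and erythroid genes with a pseudocount of 0.1 FPKM or the GC trend. With a minimum mean of 1 FPKM, 7 of 9 neutrophil markers were higher and 4 of 5 B cell markers lower. Over 207 named genes under 5 alternatives, 59 of 1035 values moved by 0.5 or more on the log2 scale. None that was at least 2-fold higher or lower turned its direction, but these alternatives could hardly have turned one. A change of pseudocount cannot alter the sign of a ratio. TPM and median centring put the median over genes tested at only -0.0762 and 0, and the GC trend gave 2 named genes another 2-fold class. A GC content was known for 99.3% of the genes tested. No paired analysis was possible because each group holds 1 library and no test was run, and for the same reason no library could be left out. Sequencing depth is unknown, and low genes carry the largest counting error.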
